A study of Mus musculus with 14 samples.

Results

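The neurogenic basic helix-loop-helix (bHLH) factors Neurog1, Neurog2, Neurog3, Neurod1, Neurod2, Neurod4, Neurod6, Olig1 and Olig2 were followed through the chromatin of mouse heart cells. They are 9 of the 21887 protein-coding genes of the annotation, and were chosen by name. Their data are the deposited regions that overlap each gene or the 10000 bp on either side of it. This gave 81 of 388424 G9a regions, 21 of 245088 H3K9me2 regions and 60 of 552542 H3K27me3 regions, and no region was shared between the genes. The windows of the 9 genes together spanned 215.36 kb. The only other annotated protein-coding gene inside any window was Gm33099, beside Neurod2.

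Chromatin came from cardiomyocyte-enriched populations of C57BL/6J mice, either sham-operated or 1 week after transverse aortic constriction (TAC), a surgical narrowing of the aorta that loads the left ventricle with pressure. Antibodies against G9a, H3K9me2 and H3K27me3 were used in 2 biological replicates per condition, which with 2 input libraries makes 14 libraries. Age, sex and any pooling of animals are not stated in the labels used here, and an enriched population can still hold other heart cells. The authors' deposited table of each antibody holds the regions that passed their own test between the conditions. Every region has 2 values for one pair of libraries, called the first, and 2 for another, called the second. No table says which pair is sham and which is TAC, so every direction below is given by pair. A place with no listed region is one that was not listed as different, and says nothing of the level of the mark there.

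The bHLH factors bind E-box DNA as dimers with ubiquitous E proteins. Neurogenins commit progenitors to a neuronal fate, NeuroD factors act later in differentiation, and Olig factors act in motor neuron and oligodendrocyte progenitors, while Notch signalling holds the family down through Hes repressors and Id proteins take up the E protein partners. In cells of other lineages such developmental regulators are classic targets of Polycomb complexes, which place H3K27me3 on CpG-rich promoters. G9a, encoded by Ehmt2, places H3K9me2, a separate repressive mark.

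H3K27me3 regions higher in the second pair covered almost the whole surroundings of most of these genes. Their share of the window was 98.7% at Olig2, 93.4% at Olig1, 93.2% at Neurod2, 90.5% at Neurog3, 89.2% at Neurog1, 83.3% at Neurog2, 69.4% at Neurod1 and 68.4% at Neurod6. Neurod4 stood apart, with 10.3%. Regions higher in the second pair in the G9a table covered 35.3% of all the windows together, and those for H3K9me2 covered 3.78%. The covered share was not computed over all genes, so these shares have no background beside them. Of all genes, 69.7% had any H3K27me3 region higher in the second pair, 73.2% a G9a region and 52% an H3K9me2 region. The map of listed regions around each start site shows the same 3 layers: long H3K27me3 blocks, shorter G9a regions inside them and a few H3K9me2 regions.

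**Figure D1:**
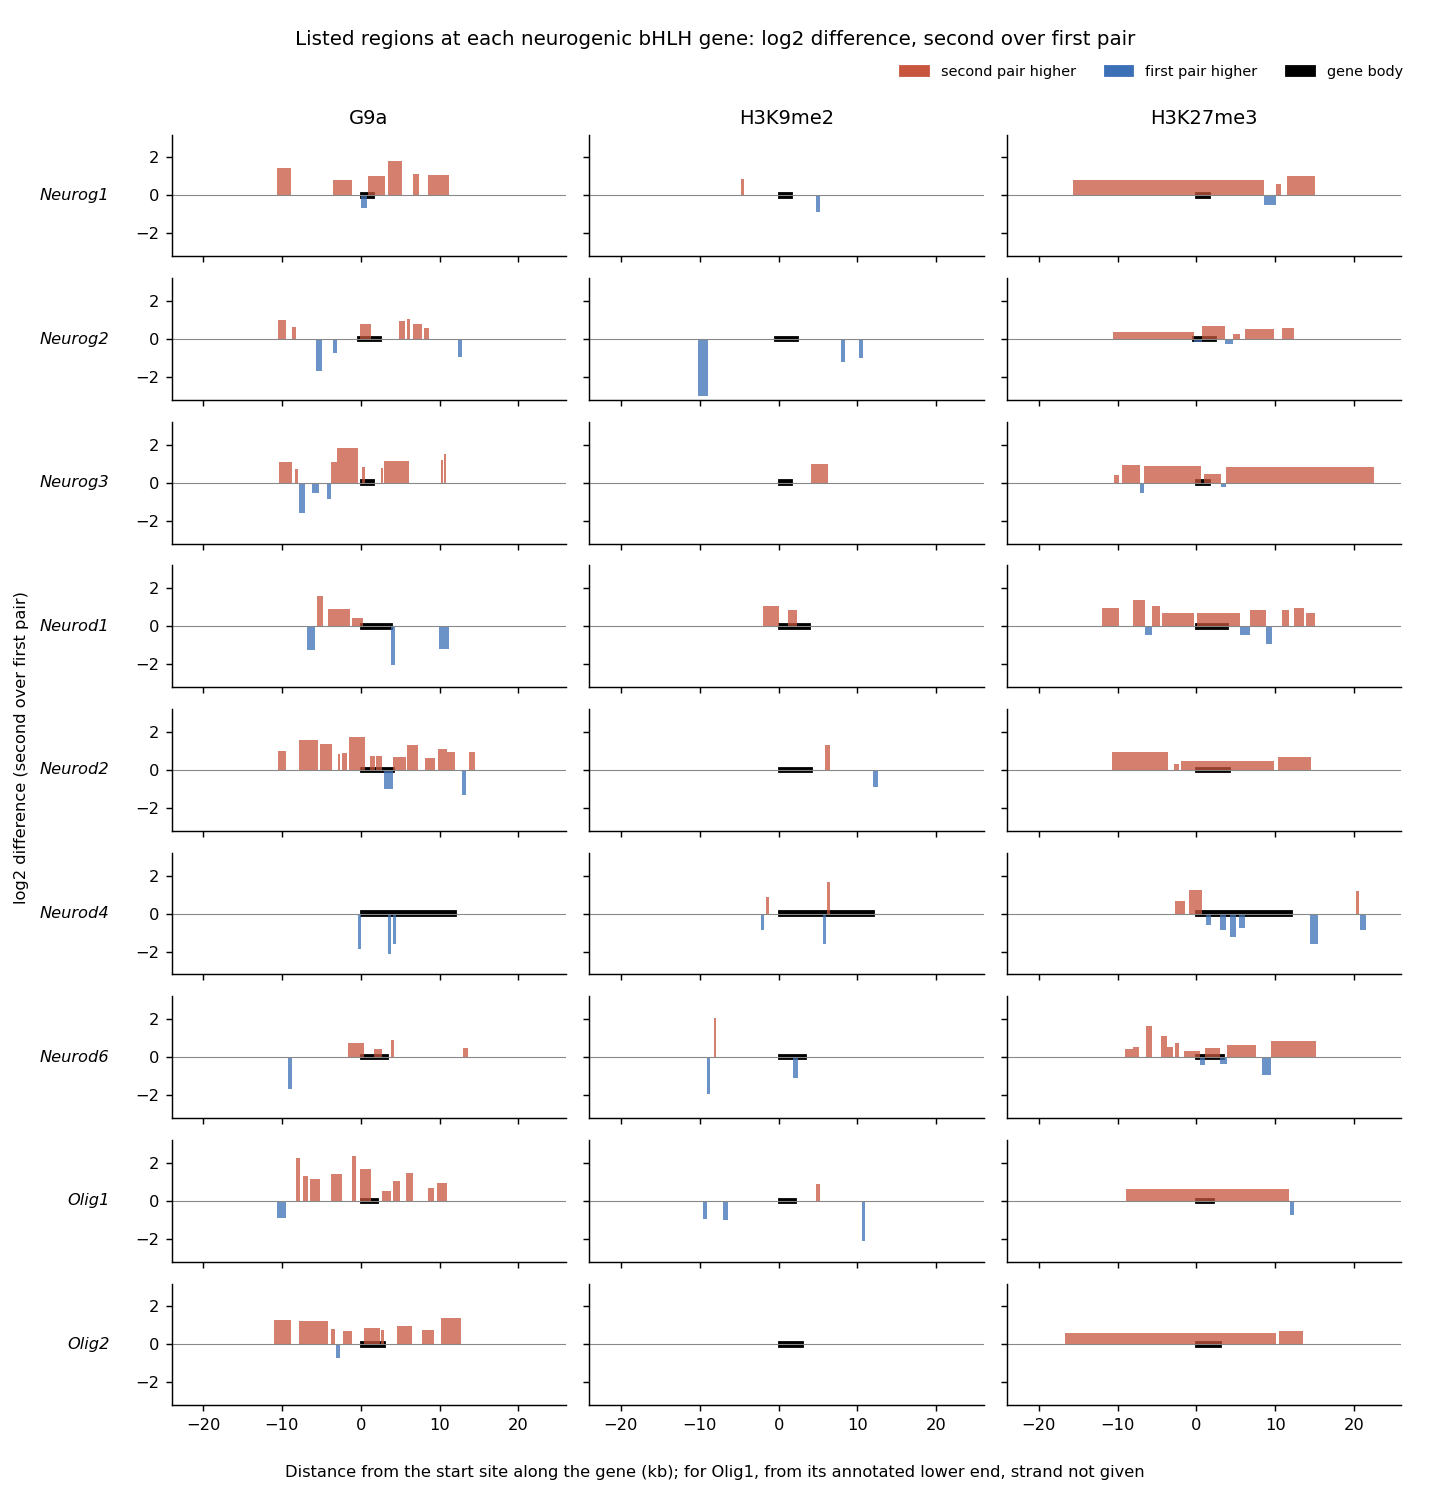
Listed regions around the 9 genes, by distance from the start along the gene in kb (for Olig1, whose strand is not given, from its lower coordinate). Each bar spans 1 region, its height is the log2 difference (second over first pair), red where the second pair is higher and blue where the first is, and black marks the gene body. Long H3K27me3 bars higher in the second pair run across most windows, and the window of Neurod4 holds only short bars.

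To show the kind of promoter under these blocks, the 250 bases before the start are printed for genes at both ends of the range. RefSeq promoters of build GRCm38.p6 matched 8 of the 9 genes, all but Olig1. CpG dinucleotides are in capitals. Neurog1 (chr13:56252181-56252430, minus strand) holds 29 CpG and Olig2 (chr16:91225300-91225549, plus strand) holds 22, and both starts lie inside an H3K27me3 region of over 20000 bp. Neurod6 (chr6:55681264-55681513, minus strand) holds 3, and the upstream of the 2 annotated starts of Neurod4 (chr10:130280255-130280504, minus strand) holds 2. These starts also lie inside H3K27me3 regions higher in the second pair, of 2050 bp at Neurod6 and 1650 bp at Neurod4.
Neurog1: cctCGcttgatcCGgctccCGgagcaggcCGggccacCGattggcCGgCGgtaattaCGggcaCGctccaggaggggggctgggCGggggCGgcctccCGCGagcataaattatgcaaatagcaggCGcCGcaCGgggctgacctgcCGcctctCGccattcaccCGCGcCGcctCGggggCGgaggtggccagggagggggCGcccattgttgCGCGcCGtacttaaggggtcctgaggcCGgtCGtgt
Olig2: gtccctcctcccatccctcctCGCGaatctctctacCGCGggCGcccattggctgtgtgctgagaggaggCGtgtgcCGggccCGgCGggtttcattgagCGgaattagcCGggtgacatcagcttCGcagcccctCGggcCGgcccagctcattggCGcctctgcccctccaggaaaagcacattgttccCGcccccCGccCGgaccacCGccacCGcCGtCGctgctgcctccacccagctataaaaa
Neurod6: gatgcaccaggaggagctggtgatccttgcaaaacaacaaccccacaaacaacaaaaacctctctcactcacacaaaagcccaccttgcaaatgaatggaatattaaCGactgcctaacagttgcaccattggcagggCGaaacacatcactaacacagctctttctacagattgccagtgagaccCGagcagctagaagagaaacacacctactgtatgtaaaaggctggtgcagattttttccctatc
Neurod4: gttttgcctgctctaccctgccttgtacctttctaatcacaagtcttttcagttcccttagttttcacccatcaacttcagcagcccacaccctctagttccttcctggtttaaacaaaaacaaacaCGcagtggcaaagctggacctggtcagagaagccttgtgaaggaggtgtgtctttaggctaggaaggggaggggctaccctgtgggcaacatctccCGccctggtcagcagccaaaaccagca

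The median of all 32851 promoters was 6 CpG and a GC content of 52.4%, and 92.1% of them hold at least 1 CG. Counts at the other genes were 22 at Neurod1, 18 at Neurog3, 11 at Neurod2, 8 at Neurog2 and 7 at the second start of Neurod4. GC content ran from 46% at Neurod6 to 71.2% at Neurog1 and Neurog3. In the plot of CpG number against the covered share of the window, Neurod4 is lowest on both axes at the upstream start, the one plotted. At its second start, with 7 CpG, it would be above Neurod6, with 3, in CpG number. Neurod2 and Neurog2, with 11 and 8 CpG, are covered to 93.2% and 83.3%. This describes 8 genes read in the same libraries.

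**Figure D2:**
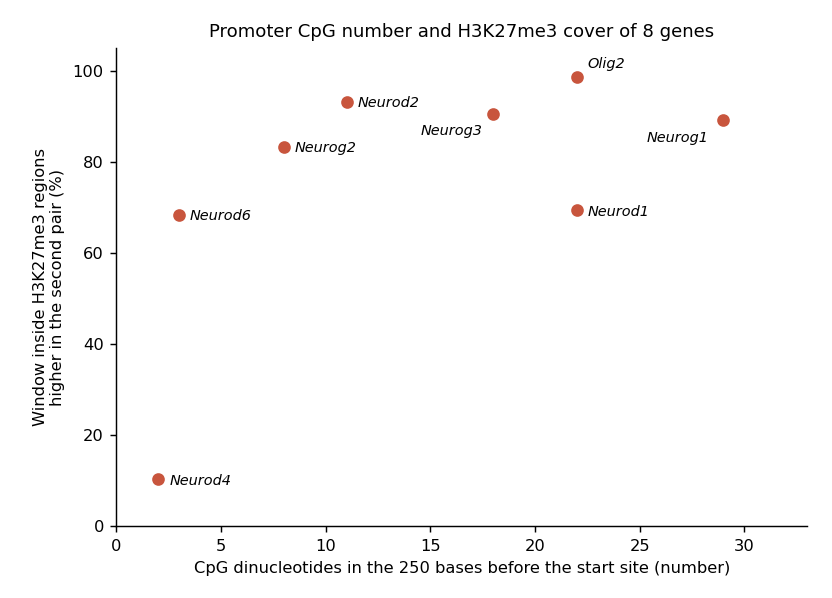
CpG dinucleotides in the 250 bases before the start (horizontal axis) against the percentage of the window covered by H3K27me3 regions higher in the second pair (vertical axis), with 1 point for each of the 8 genes with a RefSeq promoter. Neurog1, with 29 CpG, is covered to 89.2%, and Neurod4, with 2 at the start plotted, to 10.3%.

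The E-box CANNTG, the motif bHLH dimers bind, was searched in the same 250 bases, and a match on one strand is a match on the other. The promoter of Neurod2 (chr11:98329646-98329895, minus strand) is printed with its 3 matches in capitals, because the listed G9a region with the smallest deposited p over any of the 9 starts lies on it.
Neurod2: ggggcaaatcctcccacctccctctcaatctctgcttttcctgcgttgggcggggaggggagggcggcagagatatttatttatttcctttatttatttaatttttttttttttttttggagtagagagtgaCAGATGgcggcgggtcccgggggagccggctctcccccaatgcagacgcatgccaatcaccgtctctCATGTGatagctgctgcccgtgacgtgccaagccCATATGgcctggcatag

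One of the 3 matches reads CAGATG and another CATATG. Neurod6 had 2 matches, Neurod1 had 1, which reads CATATG, and Neurog3 had 1, which reads CAGCTG. The other promoters had none in this window. Of all promoters, 66.2% hold a CANNTG, 14.4% a CAGATG, 3.46% a CATATG and 13.0% a CAGCTG, so a match is common.

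The spread between libraries set what could be tested. limma on log2(value + 1), fitted on all regions of each table, called no region in any table at an adjusted p under 0.05 (percent called 0 in both directions), and the smallest adjusted p among the 9 genes' regions was 0.361 for H3K27me3, 0.389 for H3K9me2 and 0.461 for G9a. At an unadjusted limma p under 0.05 the genes had no G9a region. They had 1 H3K9me2 and 2 H3K27me3 regions with a higher second pair, and 3 and 1 with a higher first pair. In the whole tables the percent called, second and first pair higher, was 1.27 and 2.67 for G9a, 3.13 and 5.62 for H3K9me2, and 3.36 and 8.92 for H3K27me3. With 2 libraries against 2, an exact two-sided permutation test of one region cannot go below 0.333. Differences are therefore given as values, with the p of the authors' deposited table beside them, and pairs are called separated where both values of one exceed both of the other. All log2 differences are second over first, from the pair means with a pseudocount of 1.

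Most H3K27me3 regions of these genes were higher in the second pair, and many were long. Of the 60 regions, 42 were higher in the second pair, where the whole table had 42.7%, and 18 in the first, where it had 57.3%. The 42 had a median log2 difference of 0.72, against 0.84 for all such regions, and the 18 had −0.57, against −0.98. All 9 genes had a region with a higher second pair (69.7% of all genes, 84.7% with a region of either direction), and 7 had one with a higher first pair (79.9%). A deposited p of at most 1e-05 was reached by 39 of the 60 regions (60.2% of the table). The pairs were separated in 35 of the 42 (71.4% in the table) and in 10 of the 18 (67.6% in the table). Regions of at least 5000 bp made up 1.31% of the table and were present at 15.6% of genes, and 8 of the 9 genes had one. Regions of at least 10000 bp made up 0.231% of the table, 99.9% of them higher in the second pair, and 6 of the 9 genes had one (4.08% of all genes). At least 20000 bp were reached at 3 of the 9 (0.585% of all genes), by 0.0224% of regions, of which 100% were higher in the second pair. All 10 such regions of at least 5000 bp were higher in the second pair, but so were 99.6% of regions that long in the table.

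Among the neurogenins, Neurog1 (chr13:56250478-56252180), which directs sensory neuron fate, lay inside a single H3K27me3 region of 24.2 kb at chr13:56243651-56267850. Its values were 9467 and 9570 in the first pair against 17343 and 15866 in the second. Both values of the second pair were far above the first, the log2 difference was 0.80, and the p of the authors' deposited table was listed as 0, as for 0.0136% of regions. The table held 56 regions at least as long.

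Neurog3 (chr10:62133090-62134763), needed for endocrine cells of the pancreas, had 2 long H3K27me3 regions. The one downstream of the gene, chr10:62136851-62155650, was 18.8 kb long and read 3961 and 5093 in the first pair against 8812 and 7478 in the second, a log2 difference of 0.85. The one across the start, at chr10:62126501-62133650, read 2752 and 2659 against 4916 and 4980, a difference of 0.87. In both, the pairs were separated.

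Neurog2 (chr3:127632733-127635636), a proneural factor of cortex and spinal cord, had a milder difference. Its longest H3K27me3 region, chr3:127622601-127632850, lay upstream, was 10.25 kb long and read 5835 and 6136 in the first pair against 7942 and 7251 in the second, a log2 difference of 0.34. Only 0.208% of regions of at least 5000 bp higher in the second pair had a smaller difference. Across the annotated transcript start, the region chr3:127632851-127633900 read 1077 and 1264 against 1110 and 992, so the pairs overlapped and the first was the higher by a log2 difference of −0.16. The next region, over the gene body at chr3:127633901-127636700, was again higher in the second pair, with 1204 and 1497 against 2170 and 2111 (log2 difference 0.66).

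The 4 NeuroD genes differed among themselves in H3K27me3. Neurod2 (chr11:98325415-98329645), active in maturing cortical neurons, had an 11.75 kb H3K27me3 region across gene and start, at 7491 and 7631 in the first pair against 10475 and 10640 in the second (log2 difference 0.48). The region chr11:98333301-98340400, upstream of it, read 2043 and 2003 against 4043 and 3806, a difference of 0.96. Neurod1 (chr2:79452637-79456636), a differentiation factor of neurons and islet cells, had 12 H3K27me3 regions, 9 of them higher in the second pair. The region over its body, chr2:79451051-79456600, read 1692 and 2095 against 3189 and 3056, and the one just upstream, chr2:79457001-79460950, read 2084 and 1873 against 3493 and 3005. Both had a log2 difference of 0.72 and separated pairs.

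Neurod6 (chr6:55677818-55681263), a factor of pyramidal neurons, had 13 H3K27me3 regions, the most of the 9 genes. Directions alternated along the gene: chr6:55678301-55680200 read 857 and 642 in the first pair against 1062 and 1059 in the second, while its neighbour chr6:55680201-55680750 read 280 and 109 against 180 and 107. The log2 differences were 0.50 and −0.44, and the pairs of the second one overlapped. Its longest region, 5.7 kb at chr6:55666101-55671800, read 1152 and 534 against 1663 and 1375 (0.85).

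Neurod4 (chr10:130268152-130280254), a factor of retinal neuron differentiation, was the exception. Of its 9 H3K27me3 regions, 3 were higher in the second pair and 6 in the first, and none exceeded 1.65 kb. The region on its start, chr10:130279501-130281150, read 196 and 161 in the first pair against 424 and 425 in the second, a log2 difference of 1.25 with an unadjusted limma p of 0.0453. Within the gene the direction was the other way, as at chr10:130275251-130276050, which read 177 and 191 against 95 and 58 (−1.26). Downstream of the gene, chr10:130264801-130265800 read 190 and 288 against 112 and 43 (−1.61), with an unadjusted limma p of 0.0482. The adjusted limma p was 0.361 for this region and for the one on the start.

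The Olig genes are neighbours on chromosome 16, and each lay in a block of over 20000 bp. Olig2 (chr16:91225550-91228677), which specifies motor neurons and oligodendrocytes, lay in the longest H3K27me3 region of the 9 genes, 26.85 kb at chr16:91208851-91235700. It read 14027 and 12770 in the first pair against 21561 and 19657 in the second, a log2 difference of 0.62 with a deposited p listed as 0, and 39 regions of the table were as long. Olig1 (chr16:91269769-91271939), a factor of oligodendrocyte maturation, lay in a 20.7 kb region at chr16:91260851-91281550 that read 8151 and 7128 against 13742 and 10188 (0.65). The separation held at both genes. All regions of at least 5000 bp higher in the second pair had a median log2 difference of 0.76, with quartiles of 0.65 and 0.88. Of those regions, 19.4% had a lower difference than the Olig2 block, 24.3% a lower one than the Olig1 block and 3.52% a lower one than the longest Neurod2 region, so these lay on the low side.

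**Figure D3:**
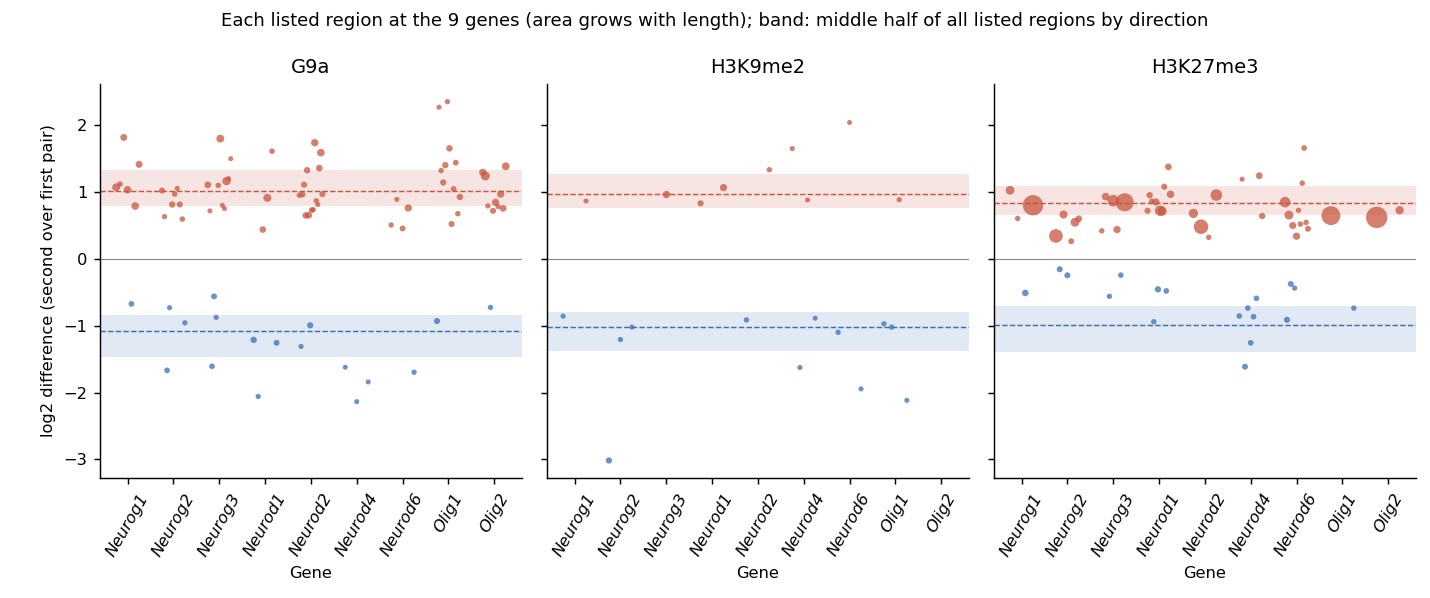
Log2 difference (second over first pair) of every listed region of the 9 genes, by gene and antibody, with 1 point per region and point area growing with region length; dashed lines and bands give the median and quartiles of all listed regions by direction. The H3K27me3 points of at least 5000 bp all lie above 0, between 0.34 and 0.96, and Neurod4 has G9a points only below 0.

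Summed over a gene's H3K27me3 regions, the second pair was higher at 8 of 9 genes, and all 8 had separated pairs; of all genes with a region, 55.6% were higher in the second pair and 41.5% were also separated. The median log2 difference over the 9 genes was 0.63, against 0.12 over all genes. Without the first library of the second pair, Olig1 moved from 0.63 to 0.39 and Neurog2 from 0.36 to 0.23. Per kb of listed region, Neurog2 had the highest summed values, 561 and 556 in the first pair against 778 and 657 in the second. Olig2 followed with 505 and 453 against 776 and 705, and Neurod2 with 484 and 490 against 757 and 724. The ranges of these 3 genes overlapped in the second pair, and in the first pair both values of Neurog2 were above those of the other 2. Neurod4 had the lowest, with 168 and 188 against 187 and 136 over 8.15 kb, and its pairs overlapped. Across the table the median region held 157 per kb, and the summed H3K27me3 values per kb of the other 8 genes were above that in every library. Long regions weigh most in these sums. Single regions could lie lower, as at Neurod6, where chr6:55683451-55684000 had a mean of 149 per kb.

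**Figure D4:**
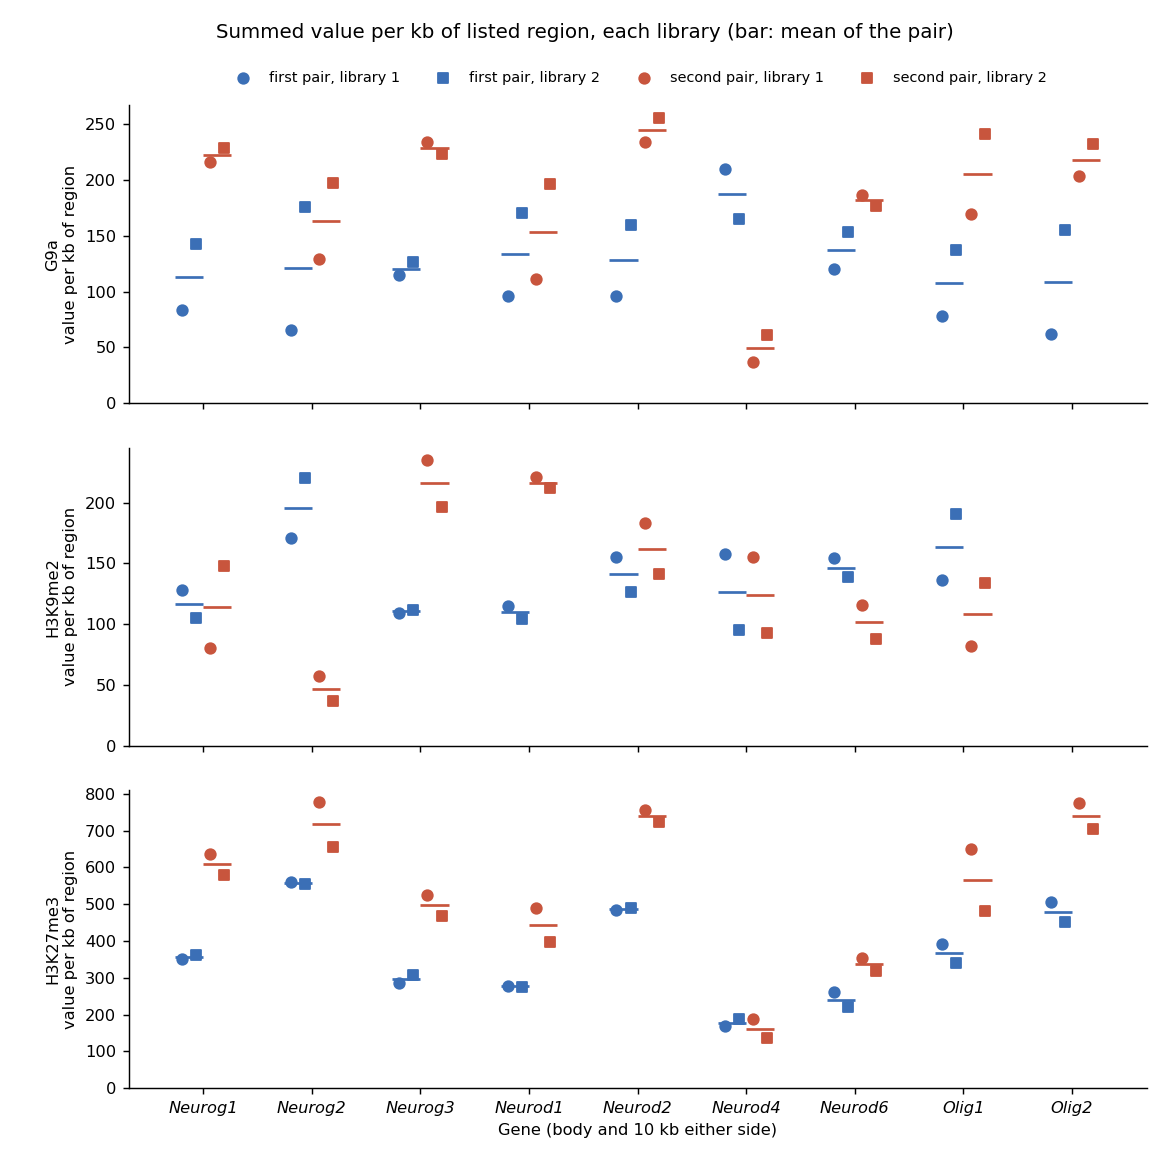
Summed value of the listed regions per kb of listed sequence, in each of the 4 libraries, by gene and antibody, with 1 point per library and a short bar at the mean of each pair. For H3K27me3 the 2 second-pair points lie above the 2 first-pair points at every gene except Neurod4, and Olig2 has no H3K9me2 point because no region was listed there.

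G9a regions were shorter, with a median length of 950 bp, and also leaned to the second pair. Of the 81, 63 were higher in the second pair (44.5% of the table) and 18 in the first (55.5). The pairs were separated in 41 of the 63 (63.1% in the table) and 10 of the 18 (59.8%). Median log2 differences were 0.97 and −1.23, against 1.01 and −1.08 over the whole table. At 8 of the 9 genes a region higher in the second pair was present (73.2% of all genes), and all 9 had one higher in the first (89.1% of all genes, 92.3% with either). A deposited p of at most 1e-05 was reached by 53 of the 81 (49.7% of the table). The G9a libraries were uneven: 9.34% of the table's regions were at 0 in the first library of the second pair, against 0.163% to 1.40% in the other 3, and the first library of the first pair was below its partner in 62 of the 81 regions (61.5% in the table). Values without single libraries are therefore given with the sums below.

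At Neurog3 and Neurog1, the G9a regions with the largest log2 differences lay beside the gene rather than on it. At Neurog3, chr10:62130101-62132700, just upstream of the start, read 169 and 250 in the first pair against 589 and 875 in the second, a log2 difference of 1.80 (deposited p 3.28e-66). Its counterpart downstream, chr10:62136051-62139200, read 426 and 528 against 1283 and 859 (1.17). Both pairs of values were separated. At Neurog1, the region chr13:56246951-56248700 read 76 and 147 against 338 and 453 (1.82), whereas the region on the start itself, chr13:56251351-56252200, read 239 and 207 against 68 and 211. That region was the gene's only one higher in the first pair, by a log2 difference of −0.67 with overlapping values. The Neurog2 start carried a region higher in the second pair, chr3:127633051-127634400, at 99 and 205 against 175 and 361 (0.81), and these pairs overlapped too. Its most different region in the other direction, chr3:127627451-127628250, read 141 and 181 against 0 and 100 (−1.67).

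Among the NeuroD genes, Neurod2 had 16 G9a regions, 14 of them higher in the second pair. On its start, chr11:98329051-98331200, which contains the promoter printed above, read 165 and 212 in the first pair against 776 and 487 in the second. The difference was 1.74 on the log2 scale with separated pairs and a deposited p of 1.64e-54. Further upstream, chr11:98335101-98337450 read 168 and 369 against 823 and 797 (1.59). Neurod1 was divided, with 3 regions in each direction: chr2:79458051-79460850 upstream read 173 and 504 against 424 and 853 (0.91, overlapping), and chr2:79452301-79452800 at the 3′ end read 113 and 89 against 9 and 38 (−2.06, separated). Neurod6 carried its main region on the start, chr6:55680851-55682900, at 179 and 303 against 316 and 503 (0.76).

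Neurod4 again went the other way. All 3 of its G9a regions overlapped the gene and were higher in the first pair with separated values. The one on the upstream start, chr10:130280251-130280600, lay almost wholly upstream of the gene. Its values were 66 and 61 in the first pair against 10 and 24 in the second, a log2 difference of −1.84. The other 2 read 51 and 70 against 3 and 35, and 114 and 51 against 28 and 8. Only 1.40% of genes with a G9a region had a lower summed log2 difference. Each of the 3 regions had a mean value under 100, so this rank rests on low values.

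G9a was higher in the second pair in 11 of the 12 regions of Olig1 and 9 of the 10 of Olig2. Over the Olig1 gene, chr16:91269651-91271000 read 21 and 192 in the first pair against 201 and 474 in the second, a log2 difference of 1.65. A region just beside it, chr16:91268601-91269150, read 1 and 43 against 121 and 112 (2.35). In both, the first library of the first pair held the lowest value. At Olig2, chr16:91217751-91221450 read 199 and 547 against 820 and 946 (1.24), and over the gene chr16:91225901-91227950 read 174 and 336 against 199 and 719 (0.85), where the pairs overlapped.

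Summed over regions, G9a was higher in the second pair at 8 of the 9 genes (39.3% of all genes with a region) and separated at 6 of these (23.3%), and the median log2 difference was 0.92 against −0.27 over all genes. The sums of Neurog1 were 1031 and 1762 in the first pair against 2671 and 2829 in the second (0.98). Those of Olig2 were 1029 and 2576 against 3379 and 3855 (1.00), and those of Neurod2 1760 and 2928 against 4293 and 4688 (0.94). Neurog3 had the most even libraries, 1380 and 1517 against 2808 and 2678 (0.92). The sums of Neurog2, 505 and 1348 against 988 and 1512 (0.43), and of Neurod1, 742 and 1312 against 857 and 1511 (0.21), overlapped between the pairs. Without the first library of the first pair, these 2 genes turned to −0.11 and −0.15, and without the second library of that pair they were at 1.31 and 0.67. Without the second library of the second pair they were at 0.09 and −0.26, and without its first at 0.71 and 0.56. Olig2 ranged from 0.49 without the first library of the first pair to 1.81 without the second, Olig1 from 0.58 to 1.39, Neurog1 from 0.64 to 1.42, Neurod2 from 0.62 to 1.35 and Neurod6 from 0.24 to 0.60. The sums of Neurod4 were 231 and 182 against 41 and 67 (−1.92) over 1.1 kb.

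G9a and H3K27me3 regions lay on top of each other at these genes. Each of the 63 G9a regions with a higher second pair shared sequence with an H3K27me3 region that was also higher there, against 52.3% in the whole G9a table. G9a regions higher in the first pair did so too, in 16 of 18 (88.9%, against 23.4% in the table). H3K27me3 regions higher in the second pair cover 74.4% of these windows. With H3K27me3 regions higher in the first pair, 4 of the 63 overlapped (6.35%, against 23.2% in the table). Of the 18 it was 4 (22.2%, against 26.1%). With the H3K9me2 regions higher in the second pair, 5 of the 63 overlapped (7.94%, against 10.9% in the table). With those higher in the first pair it was 6 of the 63 (9.52%, against 9.97%). Of the H3K9me2 regions higher in the second pair, 4 of 9 overlapped a G9a region higher there (44.4%, against 17.3% in the table). For those higher in the first pair it was 6 of 12 (50%, against 12.6%). A G9a region higher in the first pair was overlapped by 0 of the 9 (15.8% in the table). Of the 12 it was 2 (16.7%, against 19.1%).

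H3K9me2 regions were few and short at the 9 genes. Of 21 regions with a median length of 500 bp, 9 were higher in the second pair (percent called 44.4) and 12 in the first (55.6), which is close to the whole table, and 7 of the 9 (66.3%) and 9 of the 12 (69.2%) were separated. Olig2 had no listed region, while 73.7% of genes had one. A region with a higher second pair was present at 7 of the 9 genes (52% of all genes), and one with a higher first pair at 6 (64.7%). A deposited p of at most 1e-05 was reached by 11 of the 21 (44.1% of the table). Neurod1 was the only gene with one on its start: chr2:79456551-79458600 read 284 and 145 in the first pair against 446 and 455 in the second, a log2 difference of 1.07 (deposited p 6.13e-19). A second region in its body, chr2:79454301-79455500, read 90 and 194 against 273 and 234 (0.83). At Neurog3 a single region downstream, chr10:62137201-62139350, read 235 and 240 against 506 and 423 (0.96). It overlaps the G9a region at the same place that was higher in the second pair.

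Neurog2 had the largest H3K9me2 difference of the 9 genes. Upstream of the gene, chr3:127622901-127624150 read 291 and 265 in the first pair against 55 and 12 in the second, a log2 difference of −3.02 (deposited p 1.14e-46). The limma difference of mean log2 values was −3.37 ± 0.87 (SE, 2 libraries per pair), with an unadjusted limma p of 0.00997 and an adjusted limma p of 0.389. It lies inside the H3K27me3 block of that gene that was higher in the second pair. It also overlaps the G9a region chr3:127622651-127623650, which read 53 and 160 against 150 and 285 and so went the other way (1.02). At Neurod6, 2 neighbouring H3K9me2 regions went opposite ways, with 22 and 10 against 48 and 90 at chr6:55689151-55689500 (2.04) and 68 and 84 against 29 and 9 at chr6:55690001-55690400 (−1.94). Summed, H3K9me2 was higher in the second pair at 3 of the 8 genes with a region (36.3% of all such genes) and separated at 2 of these, Neurod1 and Neurog3 (19.6%).

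The partners and regulators of the family were read from lists of the pathway, by the sign of each gene's summed value. Of all genes with a region, 55.6% were higher in the second pair for H3K27me3 and 39.3% for G9a. An H3K27me3 region of at least 5000 bp was present at 15.6% of all genes. Among 18 other neural bHLH genes, H3K27me3 was higher in the second pair at 17, with a median log2 difference of 0.52, and 9 had a region of at least 5000 bp. Ptf1a, a pancreas and cerebellum factor, read 11151 and 12373 in the first pair against 19475 and 15432 in the second, and Bhlhe22, a cortical repressor, 7688 and 7342 against 11584 and 8821. Their G9a median was 0.16, with 11 of 18 higher in the second pair. The 7 E proteins and Id inhibitors had no H3K27me3 region of 5000 bp, and 5 of 7 were higher in the second pair (median 0.28). For G9a 5 of 7 were also higher in the second pair (median 0.57), among them Id3, an Id inhibitor, with sums of 427 and 793 against 1474 and 1438 (1.25). Tcf4, an E protein, had 32 G9a regions, all higher in the first pair, with sums of 2861 and 2781 against 371 and 2086 (−1.20). The value of 371 is from the first library of the second pair, in which 9.34% of the G9a table's regions were at 0. Values without single libraries were not computed for Tcf4.

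Of 27 Notch pathway and Hes and Hey genes, 18 were higher in the second pair for H3K27me3 (median 0.52) and 18 for G9a (median 0.42), and 12 had an H3K27me3 region of at least 5000 bp. Notch1, the receptor, had G9a sums of 2782 and 3686 against 9951 and 6887 (1.38) and H3K27me3 sums of 9061 and 9247 against 16820 and 14456 (0.77). Among 35 genes of the neurogenic and oligodendrocyte programme, 30 of 34 with a region were higher in the second pair for H3K27me3 (median 0.45), and 25 had a region of at least 5000 bp. For G9a, 23 of 33 were higher in the second pair (median 0.38). Pax6, a progenitor factor, read 17827 and 18481 against 29719 and 26044 (0.62). Mesodermal and muscle bHLH genes, the family's relatives nearer to the heart, were higher in the second pair at 12 of 17 for H3K27me3 (median 0.48) and 11 of 17 for G9a (median 0.42), and 10 had a region of at least 5000 bp. For H3K9me2, the other neural bHLH genes had a median of −0.76, the E proteins and Id inhibitors −1.38, the Notch pathway −0.70, the mesodermal bHLH genes −0.70 and the programme genes −0.17, against −0.27 over all genes.

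Markers of cells in the preparation were read in the same way, beside the same shares of all genes. Of 10 cardiomyocyte genes, 6 had a listed H3K27me3 region, 3 of them higher in the second pair (median −0.13), and none reached 5000 bp; Ttn, Actc1, Pln and Ryr2 had none. For G9a, 6 of the 10 were higher in the second pair (median 0.47). Schwann cell and neuron markers, 7 of 8 with an H3K27me3 region, had medians of 0.57 for H3K27me3 and 0.88 for G9a. Median H3K27me3 differences were 0.46 for fibroblast, 0.50 for endothelial, −0.14 for leukocyte and 0.44 for smooth muscle and pericyte markers, and median G9a differences were −0.29, 0.56, 0.18 and −0.14. Without RNA measurements, the labelled cell type could not be checked by expression, and the part of cell mixture in the differences was not tested.

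**Figure D5:**
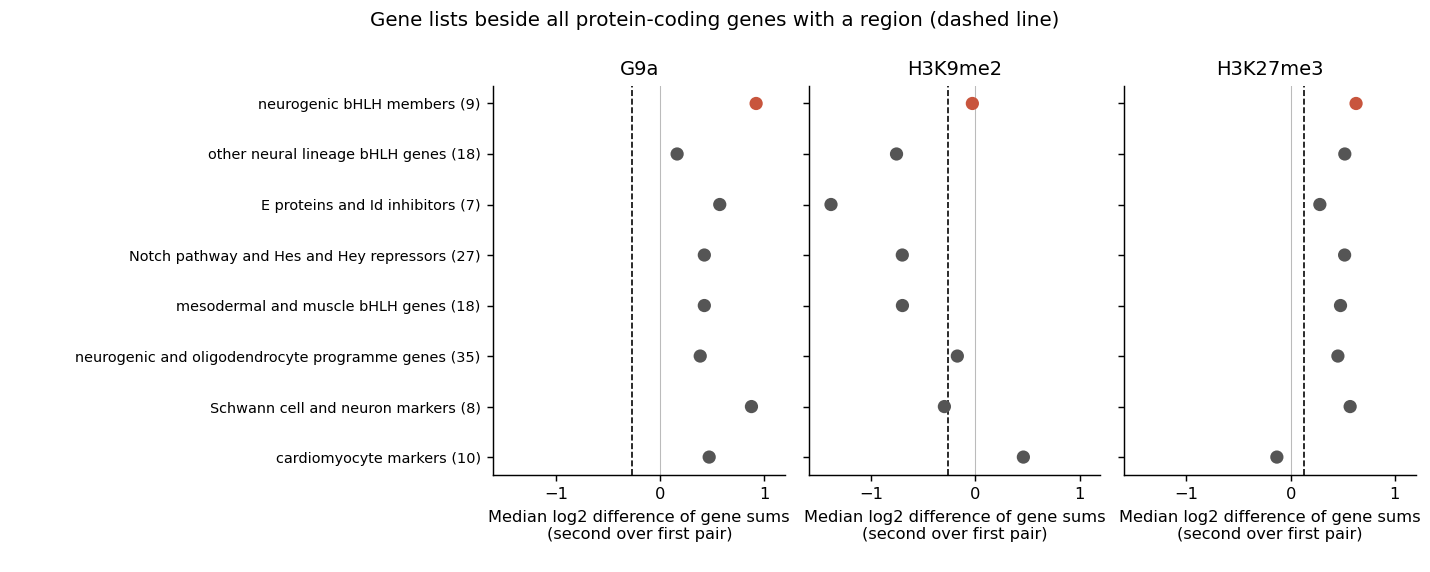
Median log2 difference (second over first pair) of summed values for the 9 genes and each other gene list, by antibody, with the number of genes in parentheses. The 9 genes have a median of 0.92 for G9a and 0.63 for H3K27me3, and the dashed lines mark all genes at −0.27 and 0.12.

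By their 12 summed values per library, the genes outside the lists closest to the median of the 9 were Tfap2c, Krt72, Tbx4, Krt84 and Lhx2, at distances from 0.86 to 1.08 in log2 units. Tfap2c and Lhx2 had H3K27me3 differences of 0.52 and 0.54 with longest regions of 12450 and 11950 bp. The 9 genes themselves lay between 1.71 for Olig1 and Neurog1 and 11.3 for Neurod4. Because the 5 were picked as the nearest genes, their smaller distances say nothing about the 9. Olig2, at 6.37, had no listed H3K9me2 region.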

How the data were processed

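Per the labels, libraries were made with a low-input ligation kit. BWA 0.7.10-r789, SAMtools 1.1 and the build mm10 (GRCm38) are named in the submitters' processing notes. The sources used here do not give the region caller or any scaling of the values. For each region, the authors deposited 4 whole-number values and a −log10 p. In every line the strand column marks the pair with the higher mean. Since scaling is unknown, the deposited values were not treated as raw read counts, read depth is unknown and no count model was used. Input libraries have no values in the tables and were not used here.

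Summed values per library were 36881071 to 48327896 for G9a, 22175663 to 23973355 for H3K9me2 and 112764904 to 143213031 for H3K27me3. Tables were fitted apart, with limma 3.58.1 (R 4.3.3) on log2(value + 1), unscaled, with Benjamini-Hochberg adjustment over the whole table at 0.05 and a test on simulated data beforehand. Fold values understate the change of low regions. Scaling libraries by median ratios moved the table median log2 difference by 0.07, 0.18 and 0.16 for G9a, H3K9me2 and H3K27me3. A gene's sum takes the regions overlapping its window whole, over the covered length. Coordinates are 1-based, mm10.

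Genes and lists were chosen with earlier results of these data known. All 9 genes are named. Regions were described from those with the smallest deposited p per direction and those on gene body or start, and of other lists from up to 4 genes per table with the smallest deposited p. Alternatives were library scaling, a pseudocount of 10, a mean value of at least 100, windows of 2500 bp and the gene body alone, at least 50% of a region inside the window, a deposited p of at most 1e-05, limma with a trend and robust variance, and leaving out each library.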

Additional observations from a re-analysis of the deposited data

How the results depend on the processing

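No paired analysis was possible because the values of a region carry no replicate numbers. No result changed to the other side of a test threshold except for G9a without the second library of the second pair: 3 regions higher in the first pair, at Neurog2, Neurod4 and Neurod6, then passed limma (adjusted p from 0.0249 to 0.0451), among 56293 of the whole table, against 0 in all other settings. The lone library is then assumed to vary like the first pair. Smaller windows held fewer regions by construction. With 2500 bp, G9a had 29 regions higher in the second pair and 6 in the first, H3K9me2 had 3 in the first, and H3K27me3 had 19 and 11. In the gene body alone, G9a had 13 and 6, H3K9me2 3 and 2, and H3K27me3 12 and 7. At a deposited p of at most 1e-05, G9a had 41 in the second, H3K9me2 5 in the first and H3K27me3 6 in the first. At a mean value of at least 100, G9a had 8 in the first, and H3K9me2 4 and 1. Genes with a higher H3K9me2 sum in the second pair numbered 3, 5 after library scaling, 1 in the gene body alone, and 3 to 5 when single libraries were left out. Leaving out single libraries gave 56 to 67 G9a regions higher in the second pair and 14 to 25 in the first, 6 to 8 G9a sums, 40 to 46 and 14 to 20 H3K27me3 regions, and 8 to 9 H3K27me3 sums. limma with a trend and robust variance passed 5 and 1 regions of the H3K9me2 table and 1 of the H3K27me3 table, none at these genes. In all, 150 of the summary values under alternatives stayed within 1.5 times the main one and 21 did not. The 150 include many counts of regions passing limma that were 0 both times. For those counts the window settings used the main fit, so they could not differ from 0.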

Other observations

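Several small summed differences moved when single libraries were left out. For H3K9me2 at Neurog1, where the sums were 109 and 89 in the first pair against 68 and 126 in the second, the log2 difference of −0.03 became 0.34 without the first library of the second pair and −0.54 without the second. For H3K9me2 at Neurod4 it moved from −0.03 to between −0.44 and 0.37. The H3K9me2 sum of Neurod2, at 0.20, ranged from 0.0039 to 0.37, and that of Olig1, at −0.59, from −0.99 to −0.28. The sum of Neurod6, at −0.53, ranged from −0.74 to −0.34. The H3K27me3 sum of Neurod4, at −0.14, reached 0.07 without the second library of the second pair.

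Among the genes of the neurogenic and oligodendrocyte programme, several transcription factor genes carried H3K27me3 blocks as long as those at Neurog2 and Neurod2. Lhx3, a motor neuron factor, had a longest region of 16000 bp, and its sums were 7538 and 7286 in the first pair against 12429 and 10844 in the second. Insm1, a zinc finger factor of endocrine and neuronal precursors, had one of 13100 bp, with 8640 and 8089 against 12843 and 12708. Nkx2-1, a forebrain, lung and thyroid factor, had one of 12150 bp, with 12292 and 13457 against 22486 and 18566. In each of these genes both values of the second pair were above both of the first.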
